A study of Mus musculus with 4 samples.

Results

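Kcnh7, Cadm2, Gap43, Hs3st5 and Unc13c are 5 genes best known from neurons, followed here in the epithelial-like cells of mouse lung tumours. They were named by symbol among the 32289 features of the count matrices, and all 5 were found. They had been picked for a lower level in epithelial-like cells of the libraries labelled tamoxifen than in the vehicle libraries, so that difference is described and was not tested. The question asked is which epithelial states hold these transcripts, and how much of the difference lies in the shares of those states and how much in the level inside them.

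All 4 libraries carry 1 genotype label with the alleles KrasFSF-G12D, p53frt, Rosa-FSF-CreERT2 and Hnf4aflox. The sample titles, however, name the vehicle libraries KP and the libraries labelled tamoxifen KPH. Tumours were started with an adenovirus carrying FlpO, a recombinase that acts on the FSF and frt alleles, under an mSPC promoter, which is meant for cells that make surfactant protein C. Tamoxifen, which activates CreERT2, or vehicle was given 10 weeks later, and macroscopic tumours were taken after another 2 weeks. Vehicle is ethanol in 1 label and corn oil in another. Part of the cells was kept before depletion, and the rest was depleted of CD45+ and CD31+ cells on magnetic beads. This gives 4 groups of 1 library each, vehicle or tamoxifen with the cells taken before or after depletion. Ages and the numbers of mice and tumours are not given in the sources used here. The portions before and after depletion do not replicate each other, so no p-value is given, and every interval is a 95% interval of counting error only.

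Kcnh7 encodes a voltage-gated potassium channel of the ERG family, which shapes neuronal firing. Cadm2 is an immunoglobulin-type adhesion molecule of synapses and axons, and Gap43 is a growth cone protein of extending axons. Hs3st5 adds 3-O-sulfate groups to heparan sulfate, a sugar chain of the cell surface. Unc13c belongs to the Munc13 family, which primes synaptic vesicles for release. In lung epithelium, neuronal gene programmes are best known from the pulmonary neuroendocrine cell, a rare airway cell with secretory granules.

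Promoter windows of 4 members were matched in RefSeq for GRCm38.p6; Gap43 had no entry. They are shown because all 4 genes were picked for a difference in the same direction, and each run is the 250 bases before the annotated start, 5′ to 3′ on the gene's strand. The windows are chr2:63184288-63184537 (minus strand) for Kcnh7, chr16:67620909-67621158 (minus strand) for Cadm2, chr10:36506557-36506806 (plus strand) for Hs3st5 and chr9:73969038-73969287 (minus strand) for Unc13c. Capitals mark matches, on either strand, to the 5 motifs named after the sequences.
Kcnh7: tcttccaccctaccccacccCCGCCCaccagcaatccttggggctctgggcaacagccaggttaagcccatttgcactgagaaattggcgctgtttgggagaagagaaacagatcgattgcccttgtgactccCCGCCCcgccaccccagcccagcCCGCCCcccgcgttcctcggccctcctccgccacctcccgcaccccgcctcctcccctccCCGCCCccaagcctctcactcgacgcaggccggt
Cadm2: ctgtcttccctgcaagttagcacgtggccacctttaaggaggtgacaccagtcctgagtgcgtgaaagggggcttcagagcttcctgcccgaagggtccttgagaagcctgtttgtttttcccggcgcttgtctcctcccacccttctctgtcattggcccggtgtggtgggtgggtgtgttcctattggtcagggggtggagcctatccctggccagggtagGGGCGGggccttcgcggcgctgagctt
Hs3st5: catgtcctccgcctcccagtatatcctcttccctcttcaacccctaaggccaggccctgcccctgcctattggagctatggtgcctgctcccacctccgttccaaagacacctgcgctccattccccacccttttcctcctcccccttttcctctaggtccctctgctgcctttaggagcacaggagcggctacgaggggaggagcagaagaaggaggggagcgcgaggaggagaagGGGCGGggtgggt
Unc13c: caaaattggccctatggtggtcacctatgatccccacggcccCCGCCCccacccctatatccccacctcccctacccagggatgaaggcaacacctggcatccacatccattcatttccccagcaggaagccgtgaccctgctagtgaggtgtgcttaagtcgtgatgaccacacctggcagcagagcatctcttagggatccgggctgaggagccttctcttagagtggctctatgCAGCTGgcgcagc
The GC box letters GGGCGG were in all 4 windows, with 4 matches for Kcnh7 and 1 for each of the others, and were in 32.9% of all 27025 windows of this length. The 4 windows are 58.8% to 67.6% G or C, against a median of 52% over all windows. The 32.9% is therefore not a background of like base content, and nothing is read from the matches. The E-box letters CAGCTG were in the Unc13c window only, and in 12.8% of all windows. The HNF4 letters CAAAGTCCA (0.381% of all windows), the FOXA letters TGTTTAC (3.09%) and the NKX2 letters CACTTG (11.6%) were in none of the 4, which says only that these letters are not in these windows.

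The libraries held 6558 to 7867 barcodes and 92644997 to 144994771 UMIs (unique molecular identifiers, each 1 counted transcript molecule), and 6111 to 7358 cells per library were kept. Library pairs shared 10 to 18 barcodes. Epithelial-like cells numbered 1070 and 6526 in the vehicle libraries before and after depletion, and 1075 and 7075 in those labelled tamoxifen. Hnf4a, the floxed gene, was at 56.7 and 55.0 CPM (UMIs of the gene scaled to 1 common total of UMIs in these cells) with vehicle and at 87.6 and 83.1 CPM in the libraries labelled tamoxifen, so it goes against the label. Which exon is floxed is not given in the sources used here, and 3′ tags outside the deleted part would not report the deletion. The samples are therefore called the libraries labelled tamoxifen.

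Kcnh7 was at 20.2 CPM (18.7 to 21.8) and 24.7 CPM (23.9 to 25.6) with vehicle, before and after depletion, and at 1.37 CPM (1.01 to 1.83) and 1.21 CPM (1.03 to 1.41) in the libraries labelled tamoxifen. Both libraries labelled tamoxifen lie far below both vehicle libraries. The vehicle level was 14.7-fold higher before depletion (10.9 to 20.2) and 20.4-fold higher after it (17.5 to 24.1), the steepest difference of the 5 genes.

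Cadm2 was at 20.02 and 15.5 CPM with vehicle and at 4.004 and 4.61 CPM in the libraries labelled tamoxifen. The vehicle level was 5.00-fold higher before depletion (4.15 to 6.06) and 3.37-fold higher after it (3.08 to 3.69). Of the 639 Cadm2 UMIs of the vehicle library before depletion, 125 came from 1 cell. Gap43 was at 24.6 and 29.99 CPM with vehicle and at 8.10 and 6.64 CPM in the libraries labelled tamoxifen, which is 3.04-fold (2.65 to 3.501) and 4.52-fold (4.20 to 4.86) higher with vehicle. Both genes were picked for this difference, so nothing is read from the lack of overlap between the treatments. Hs3st5 was at 12.0 and 15.4 CPM with vehicle and at 2.34 and 3.38 CPM in the libraries labelled tamoxifen, 5.15-fold (4.03 to 6.63) and 4.57-fold (4.13 to 5.07) higher with vehicle.

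Unc13c, the member with the most UMIs, was at 124 and 134 CPM with vehicle and at 75.5 and 75.8 CPM in the libraries labelled tamoxifen. The vehicle libraries are again the higher ones, as the choice of the gene requires. The difference is smaller, 1.64-fold before depletion (1.56 to 1.73) and 1.77-fold after it (1.73 to 1.81).

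A rule of size called a gene lower or higher when its ratio was 2-fold or more in one direction before and after depletion, with 1 CPM added to each level, among genes with at least 10 CPM in a library of either treatment at both stages. Of the 5 members, 4 were called lower, and Unc13c was not, against 84 of 9037 genes called lower (0.93%) and 36 called higher (0.398%). The members were picked on this contrast, so nothing is read from that count. By the pair before depletion alone, 1.37% of 9367 genes were called lower and 0.587% higher, and by the pair after depletion alone 1.2% of 9156 were lower and 0.557% higher. Just inside the rule stood Nlrc4, at log2 ratios of -1.14 before and -1.01 after depletion, and Prrx2, at -1.52 and -1.01. Just outside it stood Dnajc22, at -0.99 and -1.30, and Igf2bp2, at -1.08 and -0.99.

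**Figure D1:**
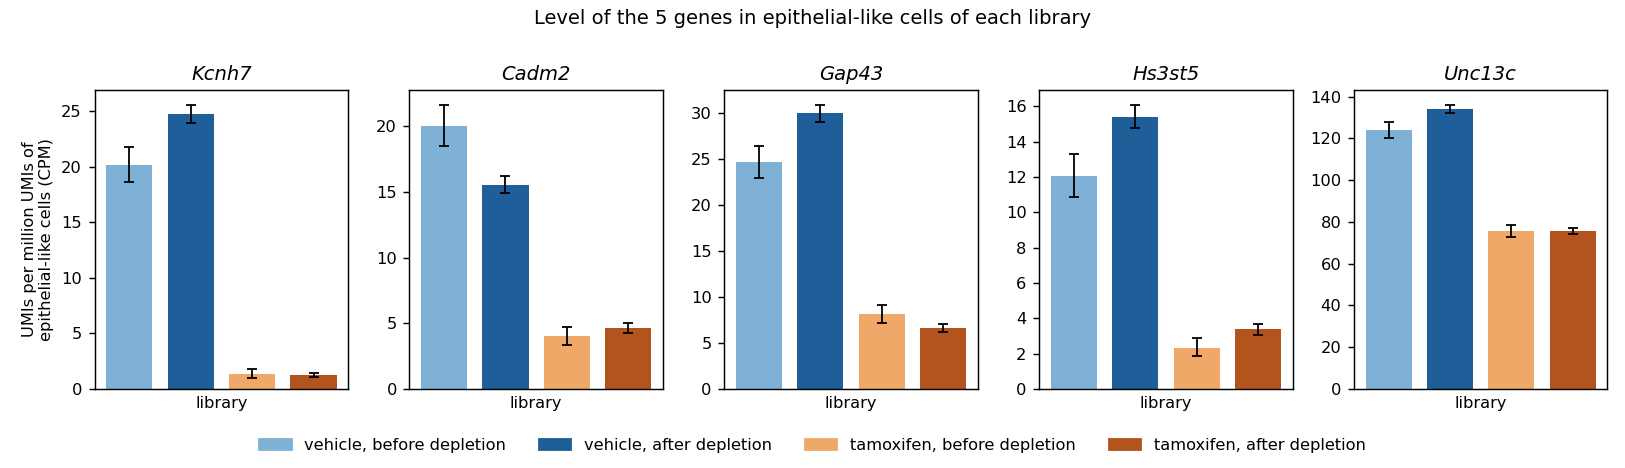
Level of each gene (vertical axis, CPM of epithelial-like cells, from 0, with its own scale per gene) in the 4 libraries (bars), with exact 95% Poisson intervals as error bars. Both libraries labelled tamoxifen lie below both vehicle libraries for each gene, which is the difference the genes were picked for. The factor is smallest for Unc13c (124 and 134 CPM against 75.5 and 75.8 CPM).

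Few cells carried most of these UMIs. With vehicle after depletion, 624 of 6526 epithelial-like cells (9.56%) had a Kcnh7 UMI, and 75 cells held 50% of them, with 78 UMIs in 1 cell. The corresponding 50% were held by 103 cells for Cadm2, 163 for Gap43, 76 for Hs3st5 and 264 for Unc13c. In the library labelled tamoxifen after depletion they were held by 6 of 7075 cells for Kcnh7, 27 for Cadm2, 45 for Gap43, 39 for Hs3st5 and 199 for Unc13c. UMIs of 1 cell are not independent, so the counting intervals understate the error.

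At equal depth the shares of positive cells differed the same way for all 5 genes. The genes were picked for this difference, so the direction is partly built in and nothing is read from it. After thinning each cell to 2000 UMIs, 1.39% and 2.34% of vehicle cells had a Kcnh7 UMI, before and after depletion, against 0.189% and 0.142% in the libraries labelled tamoxifen. Without thinning these shares were 7.01%, 9.56%, 2.60% and 0.862%, at median depths of 25134.5, 18319.5, 28814 and 16862 UMIs per cell. Thinning left out 15 to 129 shallower cells per library. The thinned Cadm2 shares were 2.39% and 2.16% with vehicle against 0.660% and 0.698%. Gap43 was at 1.89% and 3.61% against 0.472% and 0.826%, and Hs3st5 at 1.49% and 1.74% against 0.283% and 0.584%. Unc13c was at 9.66% (7.90% to 11.7%) and 12.6% (11.8% to 13.5%) with vehicle against 7.64% (6.11% to 9.41%) and 8.16% (7.53% to 8.82%), so its intervals overlap before depletion and not after it. In summed levels, fewer positive cells and less RNA per cell cannot be told apart.

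Background was read in 2 other classes thinned the same way. Endothelial-like cells, at median depths of 7220 to 13839 UMIs, had no Kcnh7, Cadm2, Hs3st5 or Unc13c UMI in any library; 0 of 148 cells with vehicle before depletion allows a share of up to 2.03%. Among alveolar macrophage-like cells before depletion, at 8465.5 and 8955 UMIs per cell, the Kcnh7 share was 0.129% with vehicle and 0 of 2041 cells labelled tamoxifen, which allows up to 0.147%. The Kcnh7 shares of 0.189% and 0.142% in epithelial-like cells labelled tamoxifen rest on 2 and 10 cells, so the thinned shares do not separate them from that background. In unthinned levels before depletion, Kcnh7 labelled tamoxifen was at 1.37 CPM (1.01 to 1.83) in epithelial-like cells, above the 0.191 CPM (0.052 to 0.489) of macrophage-like cells. For Cadm2 the macrophage-like share was 0.903% (0.495% to 1.51%) with vehicle and 0.294% (0.108% to 0.639%) labelled tamoxifen. The epithelial-like Cadm2 share labelled tamoxifen before depletion, 0.660% (0.266% to 1.36%), overlaps the second of these. Unthinned, 43 of 1570 vehicle macrophage-like cells and 30 of 2053 labelled tamoxifen held Cadm2 UMIs, at 6.45 and 2.20 CPM. In the same cells Unc13c was at 19.2 CPM with vehicle, with 142 of 286 UMIs in 1 cell, and at 4.30 CPM labelled tamoxifen. Hs3st5 was at 2.69 CPM, with 35 of 40 UMIs in 1 cell, and at 0.286 CPM. Gap43 was at 1.21 and 0.334 CPM. This background was thus also lower labelled tamoxifen, and its part in the result was not tested. A single fibroblast-like cell of the vehicle library after depletion held 79 Kcnh7 UMIs, all that were counted outside epithelial-like cells there.

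Markers of neural cell types were low. The summed level of 7 neuroendocrine markers ran from 0.564 to 1.72 CPM over the libraries. The sum of 5 Schwann or glial markers ran from 3.10 to 4.62 CPM, with Foxd3 at 0 in all 4. The sum of 6 neuron markers was 7.52 and 9.06 CPM with vehicle, against 3.74 and 7.58 CPM labelled tamoxifen, lower in both pairs, and its part in the result was not tested.

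Clustering without the 5 genes gave 21 epithelial-like states, numbered by size and called by their leading genes. State 4, led by Spink1, Agr2 and Ttr, held 93 and 897 cells with vehicle and 10 and 127 labelled tamoxifen, or 17.1% and 23.3% against 1.15% and 3.93% of epithelial-like UMIs. State 2, led by Pyy, Serpinb2 and Gm12648, held 15.7% and 17.1% with vehicle and 14.4% and 14.3% labelled tamoxifen. State 3, led by Bpifa1, Dcpp1 and Cyp2c40, held 0.798% and 0.654% with vehicle and 26.5% and 26.0% labelled tamoxifen. States 6, 9 and 14 were also mostly of the libraries labelled tamoxifen, and states 10, 18 and 19 mostly of the vehicle libraries. With 1 library per group, such a cluster may be the library and not a type. States 11, 16 and 21 had low depth, with median UMIs per cell of 6518, 3177 and 2948.

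**Figure D2:**
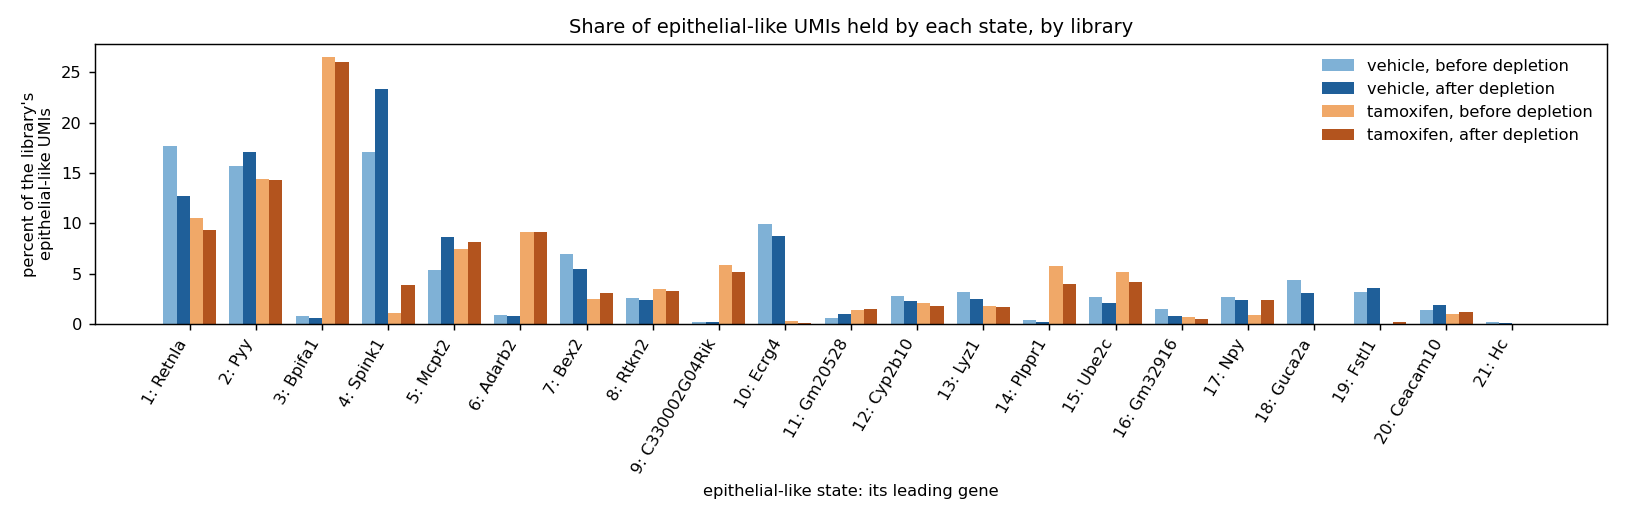
Percent of each library's epithelial-like UMIs (vertical axis, from 0) held by each of the 21 states (horizontal axis, with the leading gene), 1 bar per library. State 4 is at 17.1% and 23.3% with vehicle and at 1.15% and 3.93% in the libraries labelled tamoxifen, while state 2 is between 14.3% and 17.1% in all 4.

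State 4 held the largest share of the vehicle UMIs of 4 members. It held 48.0% and 55.9% of Kcnh7 UMIs before and after depletion, 52.9% and 43.2% of Cadm2, 75.2% and 75.2% of Gap43, and 48.7% and 62.0% of Hs3st5. State 2 held the largest share for Unc13c, at 45.2% and 47.2%, with state 4 next at 27.1% and 29.7%. Gap43 was nearly absent from state 2, which held 1.91% and 1.52% of its UMIs.

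Kcnh7 stood highest per UMI in state 18, led by Guca2a, Spink4 and Tff3, genes known from intestinal and mucous epithelium, at 101 CPM (84.9 to 119) and 117 CPM (107 to 128) with vehicle. That state had 0 and 2 cells in the libraries labelled tamoxifen. State 4 was at 56.7 and 59.3 CPM with vehicle. State 2 was at 29.3 and 22.3 CPM and state 8, led by Rtkn2, Akap5 and Sema3a, at 17.3 and 33.2 CPM, so these 2 change order between the vehicle libraries. The low-depth state 11 was also at 117 CPM (99.1 to 137) with vehicle after depletion. State 1, led by Retnla, Scgb1a1 and Cbr2, was at 0.177 and 0.692 CPM.

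Gap43 was the member most tied to state 4, at 108 CPM (99.8 to 118) and 96.6 CPM (93.2 to 100.1) with vehicle, against 2.99 and 2.66 CPM in state 2. State 5, led by the mast cell protease genes Mcpt2 and Tpsab1 with Ly6d, was at 11.2 and 31.8 CPM with vehicle and at 34.9 and 25.4 CPM labelled tamoxifen, so Gap43 was higher there before depletion and lower after it. State 15, led by the cell division genes Ube2c, Ccnb1 and Cdc20, was at 53.0 and 34.4 CPM with vehicle, with 39 of the 46 UMIs before depletion in 1 cell.

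Cadm2 was at 62.0 and 28.8 CPM in state 4 and at 23.9 and 27.9 CPM in state 2 with vehicle. After depletion the intervals of the 2 states overlap (27.0 to 30.7 and 25.8 to 30.2 CPM), and before it the state 4 level includes the cell with 125 UMIs. The low-depth state 11 was higher than both after depletion, at 57.7 CPM on 76 UMIs with vehicle. In state 17, led by Npy, Fbln2 and Inhba, Cadm2 was higher in the library labelled tamoxifen, at 56.5 CPM (48.6 to 65.3) against 24.6 CPM (19.4 to 30.6) after depletion. One cell held 68 of the 182 UMIs behind the higher value. At 5000 UMIs per cell, 6.25% of 112 vehicle cells and 7.84% of 102 cells labelled tamoxifen in state 17 had a Cadm2 UMI. Neuron markers summed to 73.9 CPM in state 17 and to at most 22.0 CPM in any other state, and their part in the result was not tested.

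Hs3st5 was at 34.3 and 41.0 CPM in state 4 and at 12.2 and 14.2 CPM in state 2 with vehicle. In the low-depth state 11 Hs3st5 was higher, at 72.1 CPM on 95 UMIs with vehicle after depletion. Unc13c was at 356 and 370 CPM in state 2, at 223 and 261 CPM in state 18 and at 197 and 171 CPM in state 4. In state 11 it was at 449 CPM with vehicle after depletion.

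**Figure D3:**
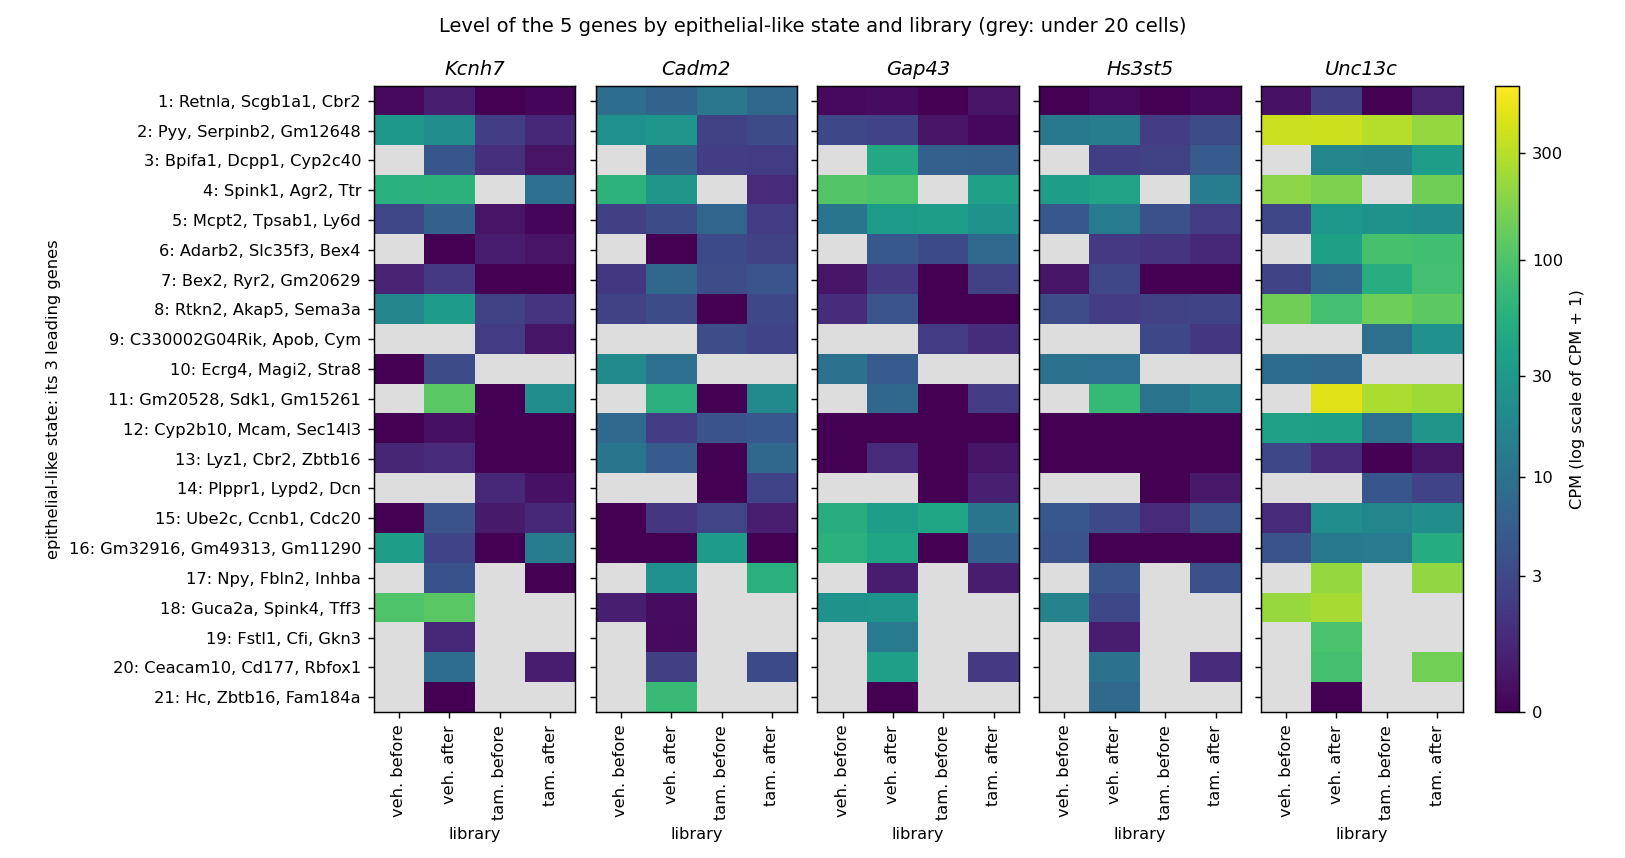
Level of each gene (colour, CPM on a log scale of CPM + 1) in each epithelial-like state (rows, with 3 leading genes) and library (columns); grey marks fewer than 20 cells. Kcnh7, Gap43 and Hs3st5 are high in state 4 with vehicle, Unc13c is high in state 2 of all 4 libraries, and Cadm2 in state 17 is at 24.6 CPM with vehicle, against 56.5 CPM labelled tamoxifen after depletion.

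State 2 shows the levels inside a state of similar share in all libraries. Kcnh7 was at 29.3 and 22.3 CPM with vehicle and at 2.24 and 1.05 CPM labelled tamoxifen, 13.1-fold (7.12 to 26.8) and 21.3-fold (13.6 to 35.1) higher with vehicle. Cadm2 was at 23.9 and 27.9 CPM against 2.44 and 3.41 CPM, 9.81-fold (5.41 to 19.5) and 8.20-fold (6.35 to 10.8). Hs3st5 was at 12.2 and 14.2 CPM against 2.24 and 3.35 CPM, 5.44-fold (2.84 to 11.5) and 4.24-fold (3.24 to 5.64). Gap43, on 2 and 3 UMIs labelled tamoxifen, was at 2.99 and 2.66 CPM against 0.407 and 0.157 CPM, 7.36-fold (1.71 to 66.3) and 16.9-fold (5.52 to 84.2). All members were lower inside this state in both pairs, Unc13c by the smallest factor, and lower is the direction they were picked for. Unc13c was at 356 and 370 CPM against 290.5 and 215 CPM, 1.23-fold (1.14 to 1.32) and 1.72-fold (1.66 to 1.79). Hnf4a was at 115 and 100.02 CPM with vehicle and at 133 and 112 CPM labelled tamoxifen in the same state. At 5000 UMIs per cell, 62 of 982 vehicle cells of state 2 (6.31%) had a Kcnh7 UMI after depletion and 1 of 933 (0.107%) labelled tamoxifen, while the Unc13c shares were 47.2% and 33.3%.

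Inside state 4 the levels after depletion were lower as well. Kcnh7 was at 59.3 and 9.32 CPM, 6.36-fold (4.79 to 8.62), and Cadm2 at 28.8 and 1.14 CPM, 25.2-fold (11.5 to 68.9), the second on 6 UMIs. Gap43 was at 96.6 and 37.7 CPM, 2.57-fold (2.22 to 2.98), and Hs3st5 at 41.0 and 14.1 CPM, 2.91-fold (2.30 to 3.73). Unc13c was at 171 and 150.5 CPM, a difference of 1.13-fold (1.05 to 1.22). At 5000 UMIs per cell the shares in 895 vehicle and 126 tamoxifen-labelled cells were 16.5% and 2.38% for Kcnh7, 28.0% and 11.1% for Gap43, and 39.9% and 33.3% for Unc13c. Before depletion the library labelled tamoxifen had 10 cells in state 4, with Kcnh7 at 25.4, Cadm2 at 20.3, Gap43 at 101.5, Hs3st5 at 30.4 and Unc13c at 251 CPM. The Gap43 and Hs3st5 values there are near the vehicle levels of 108 and 34.3 CPM, and 27 of the 40 Gap43 UMIs and 11 of the 12 Hs3st5 UMIs were in 1 cell each.

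Ratios were compared in states with 20 or more cells in both libraries of a pair and a UMI of the gene in either. The states divide the UMIs on which the genes were picked, so a lower side is partly built in. States of 1 library do not replicate each other, and nothing is read from the number of states on the lower side. Before depletion the interval of the ratio lay wholly on the lower side in the library labelled tamoxifen in 3 of 8 states for Kcnh7, 2 of 7 for Gap43, 1 of 6 for Hs3st5, 2 of 9 for Cadm2 and 2 of 9 for Unc13c. It lay wholly on the higher side in state 5 for Gap43, in state 16 for Cadm2 (on 0 and 8 UMIs, all 8 in 1 cell) and in 3 states for Unc13c. After depletion it lay wholly on the lower side in 11 of 15 states for Kcnh7, 9 of 14 for Gap43, 6 of 12 for Hs3st5, 4 of 14 for Cadm2 and 5 of 15 for Unc13c. It lay wholly on the higher side in 6 states for Unc13c, in state 16 for Kcnh7, on 3 and 9 UMIs, and in state 17 for Cadm2. Some of the lower states rest on few UMIs too. After depletion Kcnh7 had 12 UMIs with vehicle and 1 labelled tamoxifen in state 1, and 13 and 0 in state 17. With cells thinned to 5000 UMIs, 1 of 112 vehicle cells of state 17 had a Kcnh7 UMI. In state 7, led by Bex2, Ryr2 and Gm20629, Unc13c was at 2.72 and 7.47 CPM with vehicle and at 53.5 and 87.2 CPM labelled tamoxifen. In state 6, led by Adarb2, Slc35f3 and Bex4, it was at 37.1 CPM with vehicle, against 84.5 CPM labelled tamoxifen after depletion. Unc13c was therefore lower in some states and higher in others.

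The CPM difference was split into a part from levels within states and a part from state shares, each weighted by the mean of both libraries. After depletion the within-state part was 66.9% for Kcnh7 (64.0% to 69.8%), 71.8% for Cadm2 (60.6% to 83.1%), 74.3% for Gap43 (65.9% to 82.7%), 67.2% for Hs3st5 (60.5% to 73.9%) and 40.0% for Unc13c (32.9% to 47.1%). The state shares carried the rest, from 25.7% for Gap43 to 60.02% for Unc13c. Of the Kcnh7 difference of -23.5 CPM, state 4 gave -6.81 CPM through its level and -6.66 CPM through its share. Of the Gap43 difference of -23.3 CPM, state 4 gave -8.04 and -13.0 CPM in the same order. State 3 gave -5.34 CPM through its level and 6.58 CPM through its share, with a vehicle level resting on 41 UMIs in 32 cells. The Gap43 share part of 25.7% is thus a net of terms of opposite sign. For Unc13c, state 4 gave -2.77 CPM through its level and -31.2 CPM through its share, and state 2 gave -24.3 and -8.40 CPM. Over all settings tried, the within-state part after depletion ran from 40.5% to 93.3% for Kcnh7, 59.0% to 84.5% for Cadm2, 54.7% to 84.5% for Gap43, 33.9% to 88.4% for Hs3st5 and 30.3% to 63.8% for Unc13c.

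Before depletion the within-state part was 45.0% for Kcnh7 (35.7% to 54.4%), 52.5% for Cadm2 (43.3% to 61.7%), 21.5% for Gap43 (-1.54% to 44.5%), 137% for Hs3st5 (95.9% to 177%) and -6.71% for Unc13c (-22.5% to 9.12%). A value over 100% or under 0 means that the parts have opposite signs. State 4 had 10 cells labelled tamoxifen there, and state 6 had 9 vehicle cells with all of its 49 Hs3st5 UMIs in 1 cell. With states of fewer than 20 cells in either library counted wholly as shares, which was added once the data had been seen, the parts before depletion were 27.4%, 15.2%, -0.12%, 18.4% and 13.1% in the same order of genes. The split before depletion is thus not settled by these libraries.

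**Figure D4:**
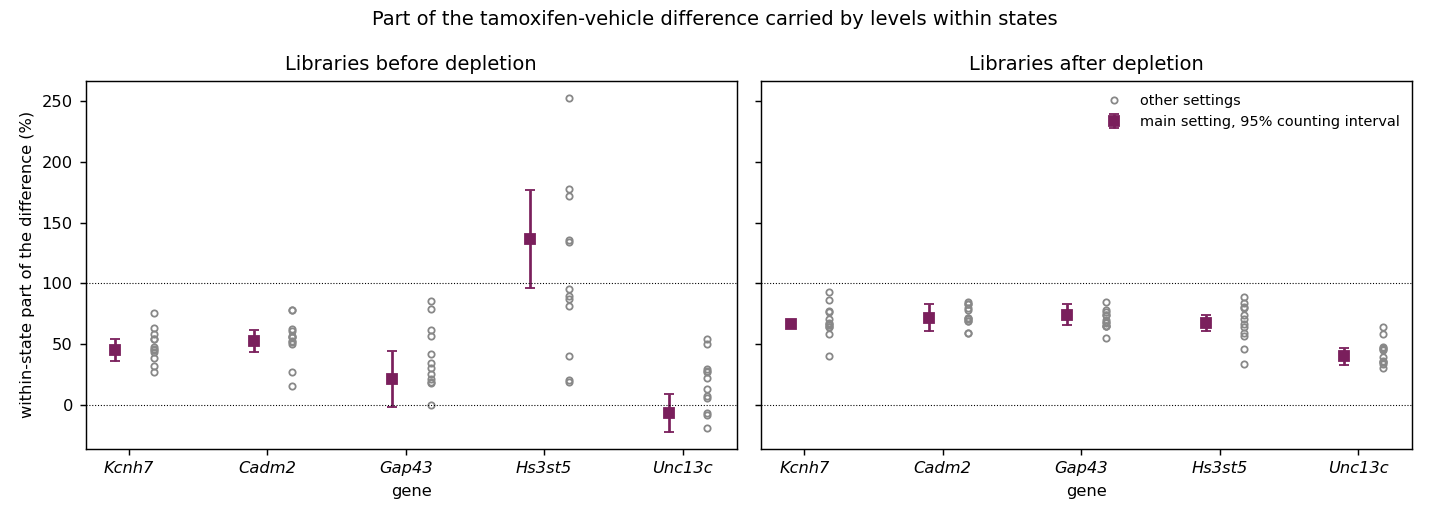
Within-state part of the difference (vertical axis, percent of the CPM difference, dotted lines at 0 and 100) for each gene before (left) and after (right) depletion, with squares for the main setting, bars for its 95% counting interval and open circles for other settings. After depletion the values run from 30.3% to 93.3%, and before it from -18.8% to 253%.

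Detection in the same cells was counted without a test. Among 895 vehicle cells of state 4 after depletion at 5000 UMIs each, 29 had both Kcnh7 and Hs3st5, where independent shares give 17.2, and 33 had both Kcnh7 and Gap43, where they give 41.5. Among 982 cells of state 2, 15 had both Kcnh7 and Cadm2, where independent shares give 5.05. Before depletion the counts were too few to read, with 2 cells for Kcnh7 and Hs3st5 in state 4, where independent shares give 2.05, and 0 for Kcnh7 and Cadm2 in state 2, where they give 0.516. These are examples, and other pairs also ran both ways in the vehicle cells after depletion. In state 2, 56 cells had both Cadm2 and Unc13c, against 37.8. In state 4, 34 had both Cadm2 and Gap43, against 24.7, and 85 both Gap43 and Unc13c, against 100.1. Over 49 state-by-library sums of 20 states, Pearson's r of log2(CPM + 1) ran from -0.09 between Cadm2 and Gap43 to 0.67 between Kcnh7 and Hs3st5. These sums share libraries and depth, and r is descriptive. They span both treatments, so the difference on which the members were picked enters r.

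By the same measure over 11035 genes, the gene most like Kcnh7 was Hsd17b2 (r = 0.79), a steroid dehydrogenase, at 16.9 and 21.1 CPM with vehicle, against 2.92 and 3.39 CPM labelled tamoxifen, followed by Rhpn2, Calml4, Ugt8a and Hpx. Gap43 was most like Alb (r = 0.89), the serum albumin gene, at 68.1 and 85.1 CPM against 39.8 and 36.6 CPM, followed by Rbp4, Adh1, Lce3f and 2810459M11Rik. Hs3st5 was most like Vkorc1l1 (r = 0.85), then Hdlbp, Plekhg2, Rbbp6 and Cers3. Unc13c was most like Hecw1 (r = 0.91), at 80.6 and 86.8 CPM against 58.7 and 58.3 CPM, then Amot, Rbpms, Tes and Zfp57. For Cadm2 the highest r was 0.69, with Ell2, followed by Pik3c2a, Nfkb1, Mast4 and Vti1a. Since r spans both treatments, a lower level labelled tamoxifen in genes like a member is partly built in, and nothing is read from it.

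Other genes of the members' families were read against the 0.93% called lower and 0.398% called higher. Of 8 Kcnh channels 2 reached the minimum, and besides Kcnh7 this was Kcnh1, at 20.6 and 13.4 CPM with vehicle, against 20.7 and 25.1 CPM labelled tamoxifen. Of 14 synaptic and nectin-like adhesion genes 4 reached it, and Cadm2 was the 1 called lower. Cadm4 was at 24.4 and 30.1 CPM against 12.0 and 14.7 CPM, just short of the rule, and Cadm1 at 171 and 132 CPM against 169 and 167 CPM. Without Cadm2, the median log2 ratios of the other 3 were -0.02 and 0.13, against -0.04 and 0.01 over all 9037 genes.

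Of 17 vesicle priming and fusion genes 9 reached the minimum and 1 was called lower, Rims2, a scaffold of the presynaptic active zone, at 78.6 and 71.3 CPM with vehicle, against 23.8 and 26.8 CPM labelled tamoxifen. Without Unc13c, the medians of the other 8 were 0.10 and 0.16. Of 15 heparan sulfate sulfotransferases 6 reached it, with Hs3st5 called lower and Hs3st3b1 higher, at 5.48 and 4.07 CPM with vehicle, against 14.2 and 12.6 CPM labelled tamoxifen, and medians of -0.03 and 0.08 for the 5 genes other than Hs3st5. Of 17 growth cone and neurite genes 8 reached it, with Gap43 called lower, none higher and medians of -0.05 and 0.07 for the other 7. Of 13 neuroendocrine genes 1 reached it, Ddc, at 33.4 and 37.4 CPM against 29.0 and 30.1 CPM, and none was called.

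The members have long gene bodies, which the choice did not use. In GRCm38 Kcnh7 (ENSMUSG00000059742) spans chr2:62693414-63184287, Cadm2 (ENSMUSG00000064115) chr16:66655421-67620908, Gap43 (ENSMUSG00000047261) chr16:42248442-42340651, Hs3st5 (ENSMUSG00000044499) chr10:36506814-36834397 and Unc13c (ENSMUSG00000062151) chr9:73479422-73968966, all protein-coding. Their spans of 92.2 to 965 kb stand at percentiles 82.9 (Gap43) to 99.7 (Cadm2) of 9033 tested genes, whose median span is 27.2 kb. Of 101 tested genes spanning at least 500 kb, 9 (8.91%) were called lower and 4 (3.96%) higher, against 0.93% and 0.398% of all genes tested. The 9 include Cadm2, which was picked for its difference, and the median log2 ratios of the other 100 were -0.16 and -0.01. Gca overlaps Kcnh7 on the opposite strand, with 701 and 2794 UMIs in the vehicle libraries and 736 and 2804 in those labelled tamoxifen.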

How the data were processed

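Single-cell RNA-seq (10x 3′ chemistry, version 3) gave 4 filtered UMI count matrices, deposited as raw counts. Cell Ranger is 7.0.1 per the file headers and 7.2.0 per the submitters' processing notes, which name mm10; use of intronic reads is not given in the sources used here. Barcodes under 200 genes or over 20% mitochondrial UMIs were dropped. Scrublet's automatic threshold marked 188, 1, 1 and 0 cells and had not worked, so a score of 0.25 was used, which removed 225, 120, 116 and 153 cells. Cells were clustered in scanpy 1.11.5 (2000 variable genes, 40 components, 15 neighbours, Leiden resolution 1, no batch correction), and epithelial-like cells again without the 5 genes. A class needed 3 markers, each in 10% of a cluster's cells; this rule was chosen after seeing the data. CPM was computed here from the deposited counts. Intervals are exact Poisson, Clopper-Pearson or conditional binomial, and by the delta method for the split, where a state empty in 1 library takes the other's level. The split and the size rule were tried under other settings, listed in the closing section.

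Named genes are the members, the 5 genes most like each by Pearson's r, up to 3 leading genes per state, list genes that meet the size rule or else the most abundant, and Hnf4a. Alb, Cadm1, Cadm4, Kcnh1, the threshold neighbours, the overlapping gene and the marker genes at 0 were named after their values were seen where the rule does not give them. Members and lists were chosen with earlier results of these data known. Sums over epithelial-like cells were simulated for 32289 genes. The size rule recovered 40 of 40 changed genes at each of log2 -3, -2, -1.5, 1.5 and 2, with 0 false calls. With 1 library per group, variation between libraries could not be estimated, so the 0 false calls do not speak to it. Spans are from GENCODE M21; 32158 features matched. Python 3.11.15, scipy 1.17.1 and edgeR 4.0.16 (TMM factors only) were used.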

Additional observations from a re-analysis of the deposited data

How the results depend on the processing

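No paired analysis was possible because each group has 1 library; for the same reason no replicate could be left out. All log2 ratios of the 5 genes kept their direction under each alternative, but not their size: adding 5 CPM moved 8 of 10, averaging CPM over cells moved 6, adding 0.1 CPM moved 5 and leaving out the low-depth states moved 1. Kcnh7 ran from -4.24 to -2.26 after depletion and from -3.78 to -1.98 before it, Cadm2 from -1.73 to -1.10 and from -2.29 to -1.40, Gap43 from -2.16 to -1.59 and from -1.59 to -1.18, Hs3st5 from -2.16 to -1.29 and from -2.31 to -1.21, and Unc13c from -0.84 to -0.73 and from -0.76 to -0.49. The within-state part moved beyond its counting interval, or changed sign, as follows, and the cause was not tested. At Leiden resolution 0.5, the within-state part was Gap43 85.7%, Hs3st5 87.1% and Unc13c 28.0% before depletion and Kcnh7 63.8%, Cadm2 59.0%, Gap43 54.7% and Hs3st5 58.8% after depletion. At Leiden resolution 2, the within-state part was Gap43 56.9%, Hs3st5 81.5% and Unc13c 7.31% before depletion and Gap43 64.8% and Hs3st5 33.9% after depletion. Weighting states by cells, the within-state part was Hs3st5 178% and Unc13c 54.5% before depletion and Kcnh7 86.0%, Hs3st5 80.5% and Unc13c 63.8% after depletion. Keeping the members in the clustering, the within-state part was Hs3st5 89.8% and Unc13c 26.8% before depletion and Gap43 65.3% and Unc13c 30.3% after depletion. Without doublet removal, the within-state part was Hs3st5 40.3% and Unc13c 22.1% before depletion and Kcnh7 70.7%, Gap43 64.7%, Hs3st5 79.8% and Unc13c 47.3% after depletion. With states built from vehicle cells, the within-state part was Kcnh7 75.9%, Cadm2 78.4%, Gap43 61.2%, Hs3st5 95.7% and Unc13c 50.1% before depletion and Kcnh7 76.1% and Hs3st5 73.9% after depletion. With genes centred per library, the within-state part was Kcnh7 63.4%, Cadm2 62.3%, Gap43 79.3% and Unc13c 29.4% before depletion and Kcnh7 76.96%, Cadm2 83.2%, Gap43 84.5%, Hs3st5 83.7% and Unc13c 58.0% after depletion. With the tamoxifen-labelled levels as weights, the within-state part was Kcnh7 58.4%, Cadm2 77.9% and Hs3st5 20.2% before depletion and Kcnh7 93.3%, Cadm2 84.5% and Hs3st5 88.4% after depletion. With the vehicle levels as weights, the within-state part was Kcnh7 31.7%, Cadm2 27.1%, Hs3st5 253% and Unc13c 5.37% before depletion and Kcnh7 40.5%, Cadm2 59.2% and Hs3st5 46.0% after depletion. Counting thin states as shares (chosen after seeing the data), the within-state part was Kcnh7 27.4%, Cadm2 15.2%, Gap43 -0.12%, Hs3st5 18.4% and Unc13c 13.1% before depletion and Kcnh7 58.0% and Hs3st5 56.8% after depletion. Leaving out the state with the highest Lyz1 level, or the low-depth states (added after seeing the data), moved no within-state part beyond its interval. The 84 genes called lower became 161 with no CPM minimum, 19 at 50 CPM or more, 9 at 4-fold, 55 with 5 CPM added and 128 before depletion alone. The 36 called higher became 13 at 50 CPM or more, 3 at 4-fold, 19 with 5 CPM added and 55 before depletion alone. TMM and median-of-ratios scaling moved neither count by over 1.5 times. The values before depletion rest on fewer epithelial-like cells, 1070 and 1075 against 6526 and 7075 after it, and on 47 Kcnh7 UMIs in the library labelled tamoxifen.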
